A study of Homo sapiens with 12 samples.

Results

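A set of 10 genes of amino acid transport were followed in LNCaP cells, namely SLC38A1, SLC38A2, SLC38A4, SLC1A5, SLC7A5, SLC7A11, SLC3A2, SLC43A1, SLC16A10 and SLC7A1. These 10 genes, of 63677 gene identifiers counted, were taken by symbol for their function, with earlier results of these data known. SLC38A4 was chosen by its measured rise with dihydrotestosterone (DHT), so that its values in DHT and EtOH are a description with no test. The gene lists read beside the members were also chosen with earlier results known. Counts of members or listed genes set beside shares of all genes are thus a description. LNCaP is an established, hormone-dependent prostate cancer line. Bag-1L, the longest protein made from the BAG1 gene, is a cochaperone, and the study compared a TALEN control line with a Bag-1L knockout (KO) line made with a nuclease aimed at the first Bag-1L codon. The KO cells came from single clones picked after serial dilution, so differences between clones and the loss of Bag-1L cannot be told apart. Full medium (FM) was RPMI medium with serum. The starvation medium was phenol red-free RPMI medium with charcoal-stripped serum, and both media held added L-glutamine. DHT, an androgen, was used at 10 nM with ethanol (EtOH) as its vehicle. Each line was grown in FM, or for 72 h in the starvation medium and then with DHT or EtOH for 16 h. This gave 6 groups with 2 biological replicates each, and poly(A) RNA was sequenced.

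Amino acids cross the plasma membrane through families of solute carriers. SLC38A1, SLC38A2 and SLC38A4 carry small neutral amino acids such as glutamine and alanine into the cell together with sodium, and SLC1A5 exchanges neutral amino acids, among them glutamine. SLC7A5 and SLC7A11 are exchangers that each pair with the heavy chain SLC3A2, the former for large neutral amino acids such as leucine, the latter bringing in cystine for glutamate. SLC43A1 and SLC16A10 let large neutral and aromatic amino acids flow down their gradients, and SLC7A1 carries arginine and lysine. When amino acids are short, the transcription factor ATF4 is known to raise many of these genes, and prostate cells also express several of them under androgen.

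The windows of 250 bases before an annotated start are given for the 4 genes that were higher with DHT in both lines. They were read 5′ to 3′ from RefSeq on GRCh38.p14, whereas the counts were made on GRCh37, and all 4 genes lie on the minus strand. Capitals mark a match to AGAACA, the half-site of the androgen response element (read as TGTTCT on the other strand), or to the E-box CACGTG. RefSeq lists a further start for SLC38A1 and for SLC43A1. The window with a match is shown for each, and the other held none of the motifs searched.
SLC38A4, chr12:46825998-46826247: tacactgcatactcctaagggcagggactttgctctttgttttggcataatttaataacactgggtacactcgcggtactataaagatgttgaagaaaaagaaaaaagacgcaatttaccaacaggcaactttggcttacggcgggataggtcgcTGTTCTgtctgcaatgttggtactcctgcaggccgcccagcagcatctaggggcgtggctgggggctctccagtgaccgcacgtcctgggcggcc
SLC38A1, chr12:46267988-46268237: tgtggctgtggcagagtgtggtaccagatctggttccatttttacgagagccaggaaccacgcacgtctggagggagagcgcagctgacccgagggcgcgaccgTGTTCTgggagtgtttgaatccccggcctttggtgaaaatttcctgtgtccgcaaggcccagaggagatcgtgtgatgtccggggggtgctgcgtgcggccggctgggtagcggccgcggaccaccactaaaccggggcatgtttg
SLC38A2, chr12:46372774-46373023: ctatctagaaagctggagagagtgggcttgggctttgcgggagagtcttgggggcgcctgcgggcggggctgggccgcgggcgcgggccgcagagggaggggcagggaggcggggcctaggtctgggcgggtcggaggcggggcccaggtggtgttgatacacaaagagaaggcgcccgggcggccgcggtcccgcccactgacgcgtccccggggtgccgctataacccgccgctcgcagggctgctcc
SLC43A1, chr11:57515703-57515952: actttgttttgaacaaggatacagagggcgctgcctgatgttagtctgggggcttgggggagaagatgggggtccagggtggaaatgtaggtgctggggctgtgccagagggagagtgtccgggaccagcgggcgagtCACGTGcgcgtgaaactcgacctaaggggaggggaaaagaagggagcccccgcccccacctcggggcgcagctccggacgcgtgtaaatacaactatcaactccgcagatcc

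The half-site lay 95 to 90 bases before the start of SLC38A4 and 146 to 141 bases before a start of SLC38A1. It was present in 12.4% of 35116 such windows, on either strand. The window of SLC38A2 held no match to any of the 4 motifs searched. The E-box of SLC43A1 lay 112 to 107 bases before a start. The E-box was also found before SLC7A5 and before a start of SLC1A5, which were not called with DHT, and in 6.34% of all windows. The whole androgen response element, taken as this half-site and its inverted repeat 3 bases apart, was found in no window of the 9 members with an entry, and in 0.00285% of all windows. TGATGNAA, the C/EBP-ATF response element, was found before a start of SLC1A5 and in 3.14% of all windows. Each match is a description of these letters only.

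Depth was 20826843 to 30354666 gene counts a sample. Control EtOH had the least alike replicates (median absolute log2 difference 0.238 across 11374 genes, against 0.076 in the closest pair). The luminal markers KLK3, FOLH1, KRT8 and KRT18 were abundant, with 2935 counts or more in every sample, while KRT5, TP63, PTPRC, COL1A2 and CHGA were at 5 counts or fewer in every sample. KRT14 reached 28 counts and SYP 78, and COL1A1 was at 378 to 1003. COL1A1 was lower in FM (normalized count 427.4 in control, 392.3 in KO) than in EtOH (748.4 and 711.1). In DHT it was 992.5 in control and 744.8 in KO. Its part in the FM, DHT and KO results was not tested. BAG1 mRNA was lower in KO, by a log2 fold change of -0.94 in EtOH and -1.14 in DHT (DESeq2 adjusted p = 6.35e-06 and 7.71e-09), and in FM the value was -0.43 (DESeq2 adjusted p = 0.0682). These counts cover all Bag-1 forms, so they do not measure Bag-1L by itself. FKBP5, an androgen-induced gene, was 16.2-fold higher with DHT in control and 16-fold in KO. KLK3, which encodes prostate-specific antigen, was 1.82-fold higher in control and 2.36-fold in KO.

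All levels below are normalized counts, that is, counts divided by the size factor of the sample, and were tested with DESeq2 over all genes. The threshold was a Benjamini-Hochberg adjusted p of 0.05 or less together with a change of 1.5-fold or more. In bulk RNA, fewer expressing cells and less RNA per cell cannot be told apart.

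**Figure D1:**
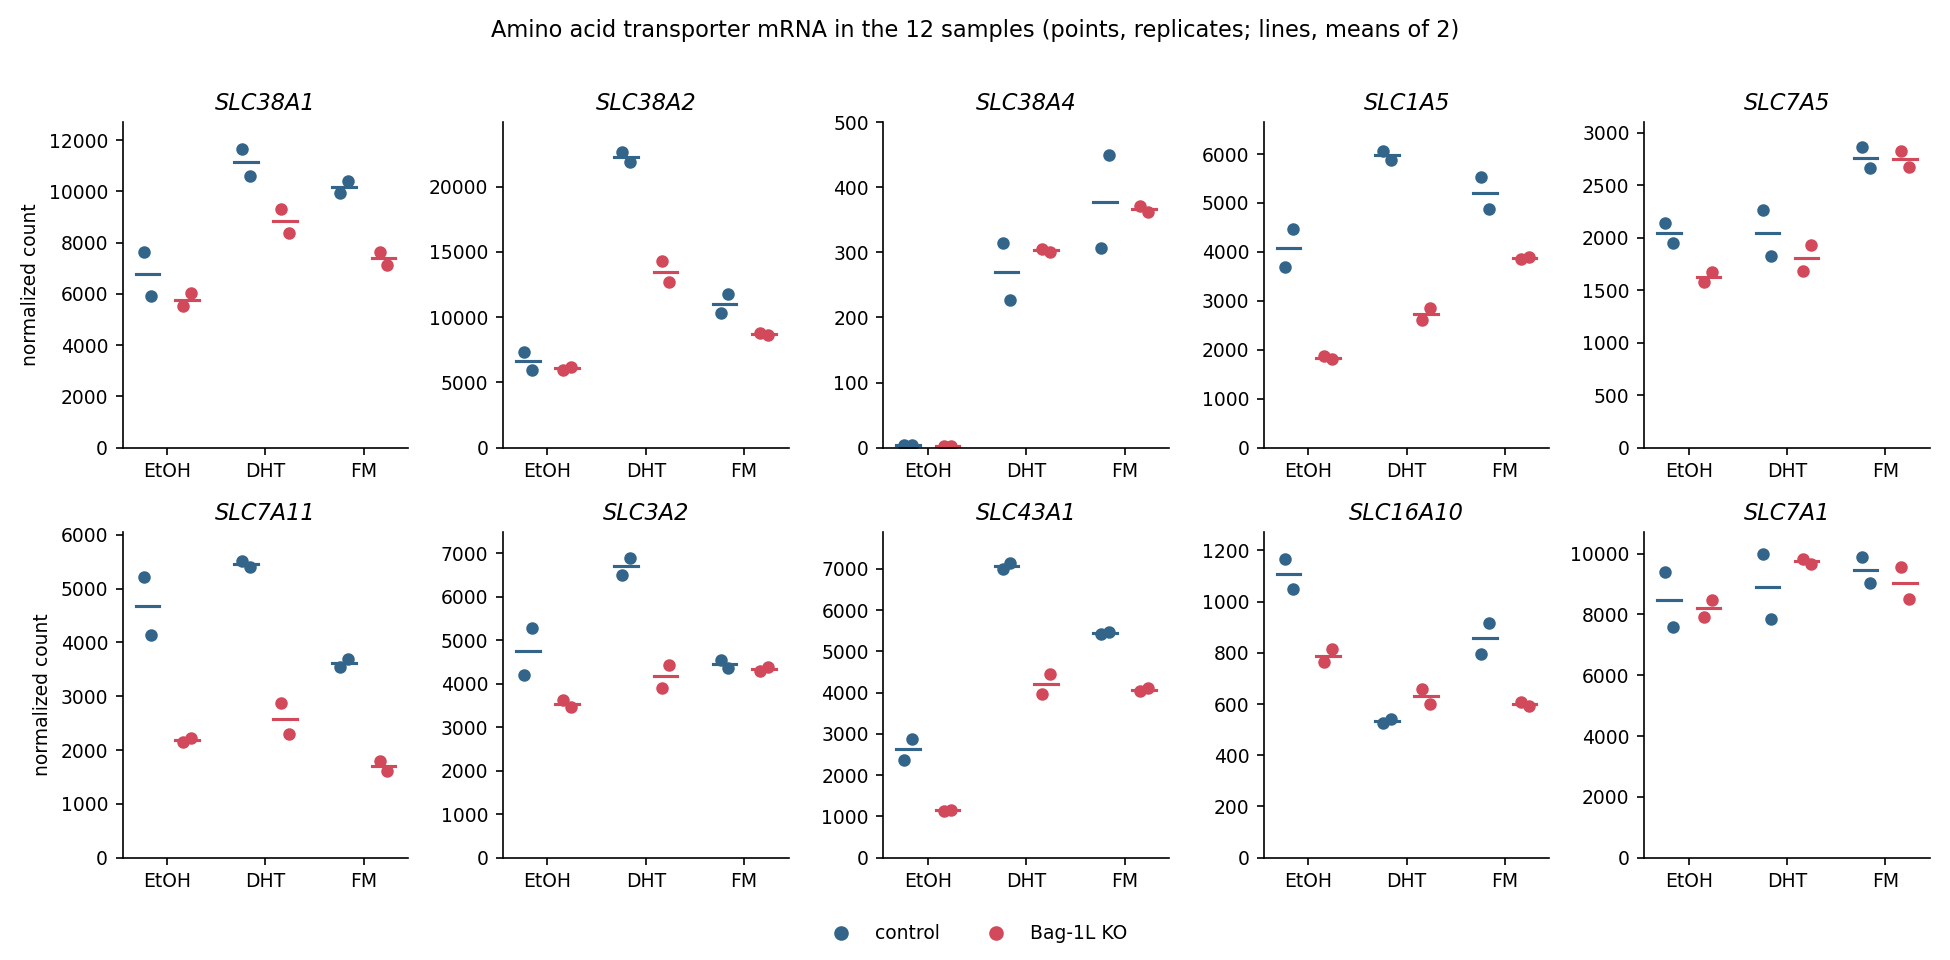
Normalized count (y axis, linear, from 0) of each of the 10 transporters in EtOH, DHT and FM; points are the 2 replicates of control (blue) and Bag-1L KO (red) and lines their means. SLC38A4 lay at 4 or below in the 4 EtOH samples and at 227 or above in the other 8, while SLC7A11 was lower in KO in all 3 conditions.

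SLC38A4 (ENSG00000139209, chromosome 12, 47158544 to 47226191, minus strand, GRCh37) was near the floor in EtOH and far above it with DHT or full medium. In control it was 3.8 and 4 in EtOH, 314 and 227 in DHT, and 307 and 449.4 in FM. In KO it was 2.3 and 2.8 in EtOH, 305.8 and 300.8 in DHT, and 372.1 and 361.7 in FM. The EtOH samples thus stood apart from all others in both lines, and the lines overlapped in DHT and in FM.

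The EtOH values rest on 8 counts in the control pair and 5 in the KO pair, so the ratio is loose. The DHT to EtOH ratio of SLC38A4 was 69.5 in control (95% counting interval 35 to 162) and 118 in KO (50.4 to 365). These intervals overlap and cover counting error only. With DHT the KO to control ratio was 1.12 (1 to 1.26), and in EtOH it was 0.66 (0.17 to 2.29). KO against control, which did not choose SLC38A4, gave a log2 fold change of 0.17 in DHT (95% interval -0.27 to 0.60, DESeq2 adjusted p = 0.692) and -0.05 in FM (-0.48 to 0.39, adjusted p = 0.918). Neither passed. FM against EtOH gave log2 fold changes of 6.60 in control and 7.16 in KO, a description with no test, since the EtOH samples are those that chose SLC38A4.

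The antisense neighbour SLC38A4-AS1, a non-coding gene on the opposite strand with no exon overlap, had 48 to 141 counts. Its normalized counts were 60.9 and 47.7 in control EtOH and 102 and 102.9 in control DHT, a rise of 0.91 on the log2 scale (standard error 0.26, DESeq2 adjusted p = 0.0044). In KO they were 82.5 and 84.7 in EtOH and 113.8 and 116.5 in DHT (log2 fold change 0.46, DESeq2 adjusted p = 0.261). In FM the control values of 55.2 and 50.6 were near those in EtOH, so the antisense gene lacked the high FM level that SLC38A4 showed. Whether reads were counted by strand is not given in the sources used here.

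Over the 12 samples, the genes whose log2(normalized count + 1) was most like that of SLC38A4 among 12205 genes were MAK, CCDC141, SLC2A3, KLF5 and TNFAIP8, with Pearson's r of 0.9972, 0.9953, 0.9919, 0.9912 and 0.9911. These values are a description, since all genes share the 12 libraries and r is set mainly by the gap between EtOH and the other conditions. CCDC141 went from 10.5 and 13.9 in control EtOH to 472.5 and 429.7 in control DHT. SLC2A3, a glucose transporter, went from 14.3 and 9 to 243.3 and 244.1. Both were also high in FM and in KO DHT, and, as with SLC38A4, their EtOH and DHT values did not overlap. Among the other members SLC43A1 came nearest (r = 0.863, rank 501) and SLC16A10 had the opposite sign (r = -0.654).

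SLC38A4, SLC38A2 and SLC38A1 lie side by side on chromosome 12 on the same strand. The start of SLC38A2 is 459635 bases and that of SLC38A1 562391 bases from the start of SLC38A4. Of the 10 protein-coding genes with a start within 1 Mb, 9 were tested, and these 3 were higher with DHT in both lines. SLC38A4 was chosen by that rise, so its part in this count is no test. A further 2 fell in each line. Over all genes tested, 6.04% rose and 5.37% fell in control, and 4.43% rose and 3.24% fell in KO. AMIGO2, a cell adhesion gene on the other side of SLC38A4, went from 197.9 and 210.9 in control EtOH to 33.3 and 26.2 in control DHT (log2 fold change -2.78, DESeq2 adjusted p = 1.78e-19) and fell by 2.61 in KO. PCED1B, next to it, fell by 1.92 in control and 1.94 in KO on the log2 scale, with 43 counts or fewer in every sample. RPAP3, SLC48A1, RAPGEF3 and SCAF11 did not pass in either line, and ENDOU had too few counts for an adjusted p.

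**Figure D2:**
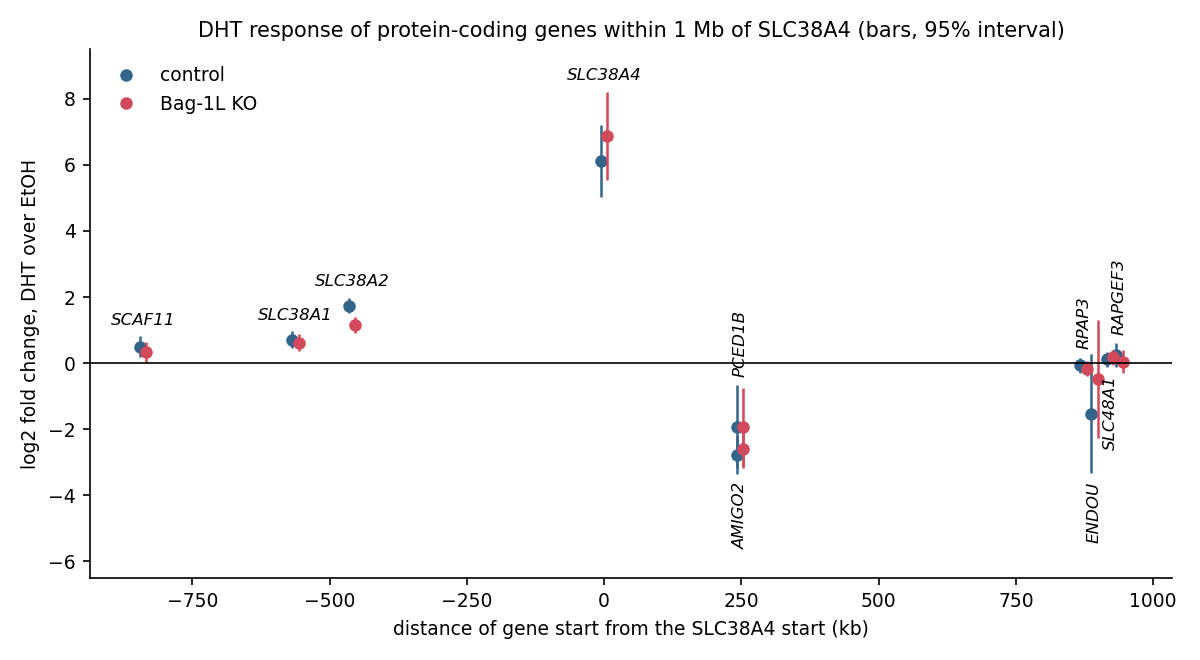
Log2 fold change of DHT over EtOH (y axis) against the distance of the gene start from the SLC38A4 start in kb (x axis) for protein-coding genes within 1 Mb, in control (blue) and KO (red); bars are 95% intervals. The 3 SLC38 genes lie above 0, AMIGO2 and PCED1B lie below it, and SCAF11, at 0.50 in control, did not pass.

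DHT against EtOH asked which transporters respond to androgen in each line. Among the 9 members other than SLC38A4, 3 rose and 1 fell in control, and 3 rose in KO. Over all 17535 genes tested, 6.04% rose and 5.37% fell in control, and 4.43% rose and 3.24% fell in KO. The median log2 fold change of the 9 was 0.5 in control and 0.25 in KO, beside -0.017 and -0.014 over all genes tested.

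SLC38A2 (ENSG00000134294, chromosome 12, 46751971 to 46766556) had 7342.6 and 5973.3 in control EtOH and 22699.3 and 21902.2 in control DHT. In KO it had 5968.2 and 6216.8 in EtOH and 14304.4 and 12669.5 in DHT. Every DHT sample lay above every EtOH sample, and the KO DHT samples lay below the control DHT samples. The rise was 3.35-fold in control (log2 1.74, standard error 0.12, DESeq2 adjusted p = 2.76e-44) and 2.21-fold in KO (log2 1.15, standard error 0.12, adjusted p = 3.99e-19). The difference between the responses was -0.60 (95% interval -0.93 to -0.26, DESeq2 adjusted p = 0.0907) and did not pass.

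SLC43A1 (ENSG00000149150, chromosome 11, 57252007 to 57283253, minus strand) had 2374.3 and 2885.7 in control EtOH and 7008.5 and 7139.7 in control DHT. In KO it had 1139.4 and 1151 in EtOH and 3958.1 and 4445.3 in DHT. The KO samples were lower in both conditions, yet DHT raised SLC43A1 in both lines, by 2.69-fold in control (log2 1.43, standard error 0.11, DESeq2 adjusted p = 4.17e-34) and by 3.67-fold in KO (log2 1.88, standard error 0.12, adjusted p = 6.06e-56). The difference in response was 0.45 (0.13 to 0.77, DESeq2 adjusted p = 0.462).

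SLC38A1 (ENSG00000111371, chromosome 12, 46576846 to 46663800) had 7642.4 and 5930.5 in control EtOH and 11668.7 and 10596.5 in control DHT. In KO it had 5511.5 and 6033.3 in EtOH and 9321.7 and 8364.7 in DHT. The rise was 1.64-fold in control and 1.53-fold in KO (DESeq2 adjusted p = 8.07e-07 and 4.91e-05), close to the fold minimum. Without replicate 2 of control EtOH the control log2 fold change was 0.54, below that minimum, and without replicate 1 of KO EtOH or of KO DHT the KO value was 0.55 or 0.54, also below it.

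SLC16A10 (ENSG00000112394, chromosome 6, 111408706 to 111552397, plus strand), the aromatic amino acid carrier, went the other way. It had 1166.7 and 1048.4 in control EtOH and 526 and 540.7 in control DHT. In KO it had 763 and 814 in EtOH and 660.8 and 598.6 in DHT, a smaller gap that did not overlap either. The control fall was -1.05 on the log2 scale (standard error 0.13, DESeq2 adjusted p = 2.59e-14), and the KO value was -0.32 (adjusted p = 0.0811). The difference in response was 0.73 (standard error 0.18, DESeq2 adjusted p = 0.021), so that SLC16A10 was the member that passed the test of a different DHT response, beside 0.408% of 13478 genes. This call was lost in 11 of the 12 fits that left out a replicate, where the value lay between 0.65 and 0.81, and with edgeR (0.76, adjusted p = 0.139). Over 18 alternatives that kept the fold minimum the adjusted p ranged from 0.00443 to 0.766, and 5 of them kept the call.

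The remaining members were not called in either line. SLC1A5 (ENSG00000105281) was just under the fold minimum, with 1.47-fold in control and 1.49-fold in KO (DESeq2 adjusted p = 3.84e-05 and 3.64e-05). SLC3A2 (ENSG00000168003) was 1.41-fold higher in control (DESeq2 adjusted p = 0.000504) and 1.18-fold in KO (adjusted p = 0.239). Without replicate 2 of control EtOH, SLC1A5 and SLC3A2 both passed in control, at log2 fold changes of 0.69 and 0.67. SLC1A5 also passed in KO without replicate 1 of KO EtOH or of KO DHT, at 0.60 and 0.64.

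SLC7A5, SLC7A11 and SLC7A1 had small values. SLC7A5 (ENSG00000103257) had a ratio of 0.999 in control (95% interval -0.26 to 0.25 on the log2 scale) and 1.11 in KO (-0.10 to 0.41). SLC7A11 (ENSG00000151012) had log2 fold changes of 0.22 and 0.24, and SLC7A1 (ENSG00000139514) of 0.07 and 0.25. No upper bound of these intervals was above 0.52 on the log2 scale.

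**Figure D3:**
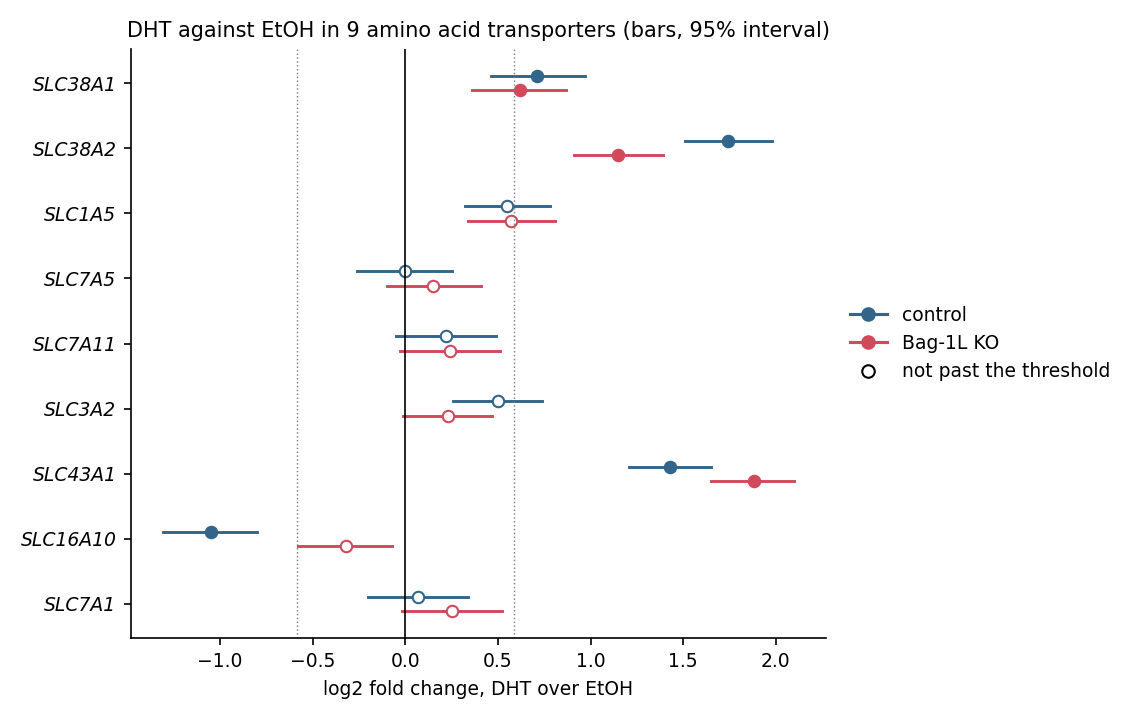
Log2 fold change of DHT over EtOH (x axis) for the 9 transporters other than SLC38A4, in control (blue) and KO (red), with 95% intervals; filled points passed the threshold and dotted lines mark a 1.5-fold change. SLC38A2, SLC43A1 and SLC38A1 lie to the right in both lines, and SLC16A10 lies at -1.05 in control against -0.32 in KO.

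KO against control compared the lines within a condition. In EtOH 3 of 10 fell past the threshold, in DHT 5 and in FM 1, beside 2.31%, 3.32% and 2.6% of all genes tested (2.8%, 4.66% and 5.41% of all genes rose). The median of the 10 was -0.46 (EtOH), -0.51 (DHT) and -0.38 (FM), against -0.015, -0.018 and -0.014 over all genes. The members were chosen with earlier results of these data known, so these counts and medians are a description of the set.

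SLC7A11 (chromosome 4, 139085251 to 139163503, minus strand) was the cystine exchanger and fell in all 3 conditions. It had 5222.4 and 4138 in control EtOH against 2156.7 and 2217.2 in KO EtOH. With DHT it had 5507.2 and 5405.7 against 2866.5 and 2298.8. In FM it had 3533.9 and 3696.2 against 1797.3 and 1614.4. No KO sample reached the control samples of the same condition, and the log2 fold changes were -1.10, -1.08 and -1.08 (standard error 0.14 each, DESeq2 adjusted p = 4.21e-13, 6.3e-13 and 1.16e-12).

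SLC1A5 (chromosome 19, 47278140 to 47291851, minus strand), the glutamine exchanger, had 3688.4 and 4458.3 in control EtOH against 1866.2 and 1804.1 in KO EtOH. With DHT it had 6059.5 and 5884.8 against 2606.7 and 2855.6, and in FM 5523.9 and 4881.9 against 3848.3 and 3898.6. KO samples were lower throughout, with the smallest gap in FM. The log2 fold change was -1.15 in EtOH and -1.13 in DHT (standard error 0.12 each, DESeq2 adjusted p = 2.22e-19 and 2.51e-19), and -0.43 in FM, under the fold minimum (adjusted p = 0.00407). Of the 50-base stretches of SLC1A5 transcripts, 21.3% also occur in another annotated gene, so its counts are uncertain to that extent.

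SLC43A1 fell in KO by 1.2 on the log2 scale in EtOH (standard error 0.12, DESeq2 adjusted p = 8.3e-22) and by 0.75 in DHT (standard error 0.11, adjusted p = 2.08e-09). In FM it had 5419 and 5468.4 in control against 4029.3 and 4110.1 in KO, a log2 fold change of -0.42 that was under the fold minimum (DESeq2 adjusted p = 0.00314). SLC38A2 fell in DHT, by 0.73 (standard error 0.12, DESeq2 adjusted p = 1.22e-07), while in EtOH its value was -0.13 (95% interval -0.37 to 0.11). Whether these gaps differ between EtOH and DHT is the same test as the difference in DHT response above, which neither gene passed.

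SLC3A2 (chromosome 11, 62623476 to 62656352, plus strand), the heavy chain shared by SLC7A5 and SLC7A11, had 6510.7 and 6889.5 in control DHT against 3914.6 and 4424.4 in KO DHT. In EtOH it had 4209.9 and 5282.9 against 3629.5 and 3458.5, and in FM 4551 and 4355.7 against 4283.9 and 4384.1, where the lines overlapped. The fall was -0.68 in DHT (standard error 0.12, DESeq2 adjusted p = 8.6e-07), and the values were -0.42 in EtOH (adjusted p = 0.00948, under the fold minimum) and -0.04 in FM (adjusted p = 0.869).

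SLC7A5 (chromosome 16, 87863629 to 87903113, minus strand), the light chain for leucine, had 2142.1 and 1953.6 in control EtOH against 1579.1 and 1672.3 in KO EtOH (log2 fold change -0.33, DESeq2 adjusted p = 0.0861). With DHT it had 2266.5 and 1823.8 against 1687.8 and 1928.3, and in FM 2861.3 and 2661.3 against 2826.1 and 2676.5, so the lines overlapped in both. SLC7A1 (chromosome 13, 30083551 to 30169825, minus strand) lay between 7588.7 and 9973.6 in all 12 samples, with KO against control at -0.05 (EtOH), 0.13 (DHT) and -0.07 (FM). The 95% intervals of these 3 values lay within -0.34 and 0.40.

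SLC38A1 had KO values of -0.23, -0.33 and -0.46 in the order EtOH, DHT, FM (DESeq2 adjusted p = 0.309, 0.0601 and 0.00493), each under the fold minimum. SLC16A10 had 796.2 and 917.2 in control FM against 610 and 591.9 in KO FM. KO against control gave -0.49 (EtOH), 0.24 (DHT) and -0.51 (FM) (DESeq2 adjusted p = 0.0027, 0.218 and 0.00157), and it passed in FM (-0.62) when replicate 1 of control FM was left out.

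**Figure D4:**
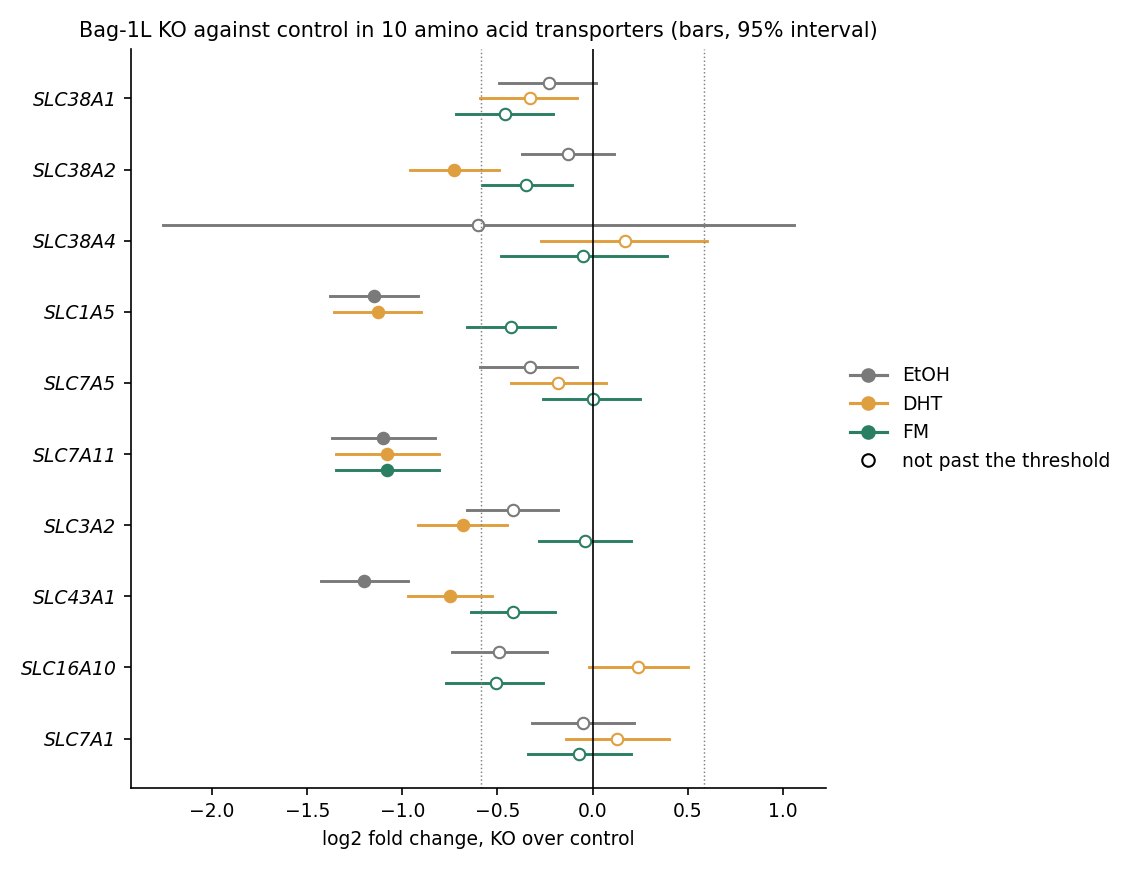
Log2 fold change of KO over control (x axis) for the 10 transporters in EtOH (grey), DHT (orange) and FM (green), with 95% intervals; filled points passed the threshold and dotted lines mark a 1.5-fold change. SLC7A11 lies near -1.1 in all 3 conditions, SLC1A5 near -1.1 in EtOH and DHT, and the wide bar of SLC38A4 in EtOH rests on 8 and 5 counts.

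Full medium was set against EtOH to describe the members in cells that were not starved. The 2 conditions differ in charcoal stripping of the serum, in phenol red and in the 72 h of starvation together. The part of hormone in these comparisons was not tested. SLC38A4 is left out of these counts, because its EtOH values chose it. Of the 9 other members 2 rose in control and 3 in KO, beside 9.81% and 9.61% of 18549 genes that rose, with 11.5% and 9.68% that fell. SLC43A1 rose in both lines, SLC38A2 in control (log2 0.73, standard error 0.12, DESeq2 adjusted p = 2.98e-08), and SLC1A5 and SLC7A5 in KO (1.08 and 0.76, adjusted p = 5.49e-18 and 5.74e-08). These comparisons share the EtOH samples with those of DHT. The difference in FM response, a comparison added after the data were seen, passed for 2 members, beside 1.39% of 12971 genes. SLC43A1 rose by 1.05 in control and 1.83 in KO, a difference of 0.78 (standard error 0.16, DESeq2 adjusted p = 0.000528), and SLC1A5 by 0.35 and 1.08, a difference of 0.72 (standard error 0.17, adjusted p = 0.00313). Only the value for SLC43A1 passed with edgeR and in all 12 fits that left out a replicate. That for SLC1A5 was lost with edgeR (adjusted p = 0.0507, range 3.33e-07 to 0.19 over 18 alternatives) and in 6 of the 12 fits, among them the fit without replicate 2 of control EtOH (0.58).

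Levels of different genes were compared per kilobase of exon after scaling to the sample total (RPKM). In control EtOH the order was SLC1A5 (49.6 ± 3.9, SD, n = 2), SLC7A1 (45.2 ± 9.2), SLC38A2 (41.8 ± 8.3), SLC43A1 (30.3 ± 2.5), SLC3A2 (30.1 ± 3.2), SLC38A1 (27.7 ± 6.4), SLC7A11 (19.9 ± 4.3), SLC7A5 (17.5 ± 2.1), SLC16A10 (4.02 ± 0.52) and SLC38A4 (0.0382 ± 0.00089). The replicates of the first 3 overlapped, as did those of the next 3 and those of SLC7A11 and SLC7A5. With DHT the order in control was led by SLC38A2 (127 ± 7.2), SLC43A1 (74.6 ± 1.3) and SLC1A5 (66.7 ± 3.4), whose replicates did not overlap. SLC38A4 (2.43 ± 0.63) then stood above SLC16A10 (1.76 ± 0.02). In KO with DHT SLC38A2 still led (83.7 ± 8.5), followed by SLC7A1 (51.2 ± 1.4) and SLC43A1 (48.1 ± 3.2), of which the last 2 overlapped.

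Per length, SLC38A4 stayed a small share of the 3 SLC38 members, at 1.41% ± 0.27 (SD, n = 2) in control DHT and 2.42% ± 0.17 in KO DHT. In FM it was 3.23% ± 0.62 in control and 4.10% ± 0.018 in KO. The share of SLC38A2 went from 60.2% ± 0.79 in EtOH to 74.5% ± 0.98 in DHT in control, and from 61.9% ± 0.83 to 68.4% ± 0.31 in KO. SLC7A11 was 1.13 ± 0.11 times SLC7A5 in control EtOH and 0.665 ± 0.014 times in KO EtOH, and in FM the ratios were 0.648 ± 0.054 and 0.306 ± 0.011. With DHT the ratios were 1.33 ± 0.19 in control and 0.714 ± 0.18 in KO. The light chain for cystine was thus lower relative to that for leucine in the KO samples of all 3 conditions, with no overlap between lines.

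A list of 12 genes known to rise when amino acids are short were read beside the transporters. The list was chosen with earlier results of these data known, so its counts are a description. In DHT 9 of 12 fell past the threshold in KO, beside 3.32% of all genes tested, with a median log2 fold change of -0.70. They were the transcription factors ATF4 (-0.70), ATF3 (-1.07), DDIT3 (-1.06) and CEBPB (-0.76), the pseudokinase TRIB3 (-0.61), the glutathione-degrading enzyme CHAC1 (-1.38), asparagine synthetase ASNS (-0.88), and PSAT1 (-0.71) and MTHFD2 (-0.68), enzymes of serine synthesis and mitochondrial folate metabolism. CHAC1 had 405.8 and 421.6 in control DHT against 143.6 and 176.3 in KO DHT, and ASNS had 6586.5 and 7764.1 against 3808.1 and 3999.1. The values of the other 3 genes were -0.51 for PHGDH, -0.31 for SESN2 and -0.19 for VLDLR. With each replicate left out in turn the count was 7 to 10. With edgeR and with TMM size factors it was 8, TRIB3 being lost.

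In EtOH 5 of the 12 fell in KO, beside 2.31% of all genes tested, namely ATF3 (-0.63), ASNS (-0.70), CHAC1 (-0.75), PSAT1 (-0.62) and MTHFD2 (-0.59). This count rests on the control EtOH replicates, since it was 1 without replicate 2 and 7 without replicate 1. With only the groups compared it was 3, and ATF3 and CHAC1 were lost. The median log2 fold change of the 12 in KO was -0.55 in EtOH and -0.09 in FM. Whether the KO gap differs between EtOH and DHT is the test of a different DHT response. Of the 12, 0 passed it, beside 0.408% of all genes tested. The median difference of the 12 was -0.21, and 11 lay below 0. The difference in FM response also passed for 0 of the 12, beside 1.39%, with a median of 0.25 and 11 above 0. With so few genes a count of 0 does not show that the gaps are alike. In FM 3 of the 12 had an adjusted p of at most 0.05 and were under the fold minimum, among them ASNS (-0.50, DESeq2 adjusted p = 0.000428). With DHT, VLDLR and ATF3 rose in both lines (log2 1.68 and 1.15 in control, 1.24 and 0.71 in KO), and DDIT3 (0.68) and CHAC1 (0.70) rose in control, 4 and 2 of 12 beside 6.04% and 4.43% of all genes that rose. The control count of 4 was 2 without replicate 1 of control EtOH and 6 without replicate 2.

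**Figure D5:**
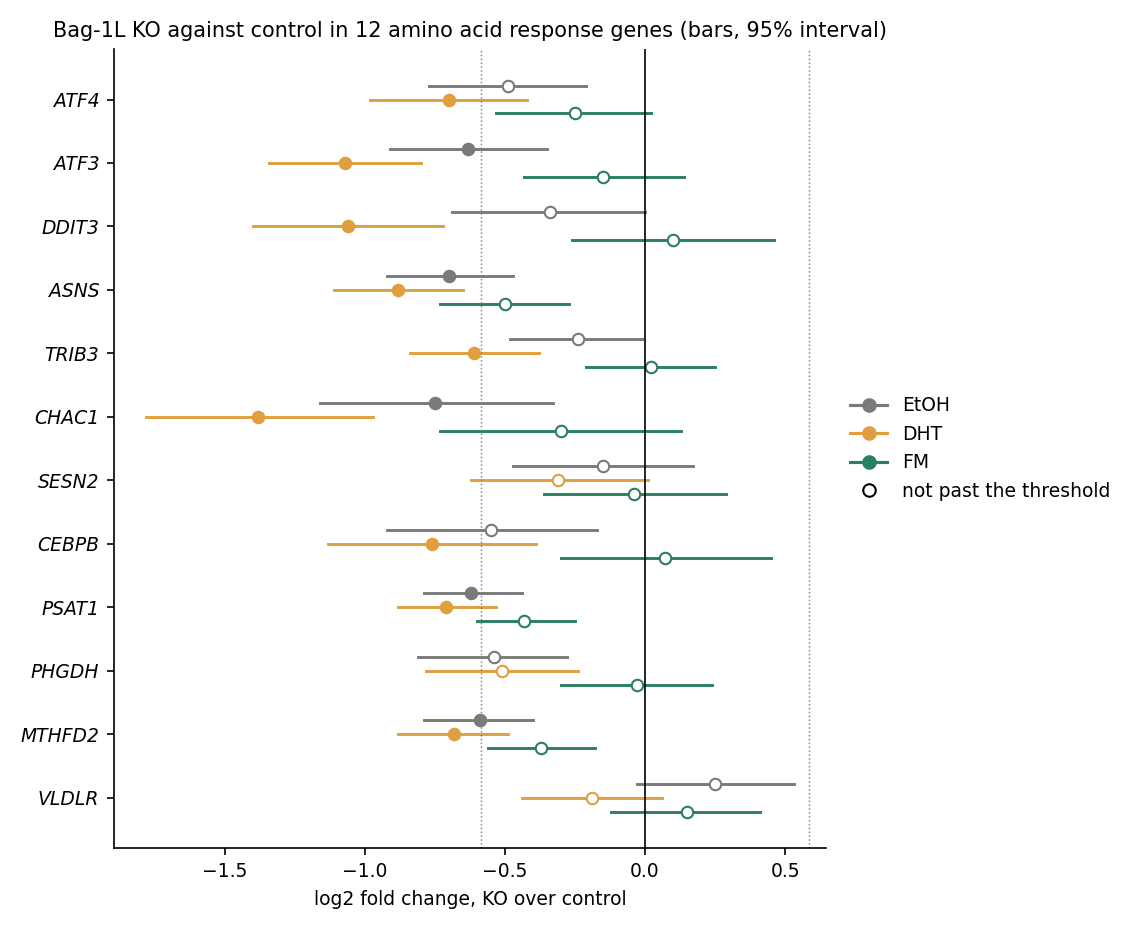
Log2 fold change of KO over control (x axis) for 12 amino acid response genes in EtOH (grey), DHT (orange) and FM (green), with 95% intervals; filled points passed the threshold and dotted lines mark a 1.5-fold change. In DHT 9 of 12 points are filled and lie between -0.61 and -1.38, in EtOH 5 are filled, and in FM the points lie nearer to 0.

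Among 43 other amino acid transporters, 36 had enough counts to be kept. In KO against control, 3 of 27 tested rose and 1 fell in EtOH, beside 2.8% and 2.31% of all genes. In DHT 3 of 25 rose and 1 fell (4.66% and 3.32% of all genes), and in FM 2 of 23 rose (5.41%). With each replicate left out in turn, 2 to 4 rose and 0 to 1 fell in EtOH, 2 to 5 rose and 0 to 2 fell in DHT, and 1 to 3 rose and 0 to 1 fell in FM. The medians were 0, 0.15 and 0.02. SLC6A6, the taurine transporter, had 183.7 and 167.1 in control EtOH against 439.7 and 481.8 in KO EtOH. It rose in KO by log2 fold changes of 1.39 in EtOH, 1.88 in DHT and 1.31 in FM (standard error 0.19 each, DESeq2 adjusted p = 2.31e-11, 4.36e-20 and 2.5e-10). SLC6A19, a neutral amino acid transporter of gut and kidney, had 115.1 and 84.6 in control EtOH against 352.7 and 293.6 in KO EtOH, and 16.2 and 13.1 in control DHT against 84.7 and 105.6 in KO DHT. It was thus higher in KO (log2 1.69 in EtOH and 2.70 in DHT) and lower with DHT in both lines (-2.77 in control, -1.77 in KO). SLC1A4, a relative of SLC1A5 that carries alanine and serine, fell in KO EtOH by 0.75 (DESeq2 adjusted p = 0.00123), a call that was lost without replicate 1 or 2 of KO EtOH. SLC6A9, a glycine transporter, fell in KO DHT by 0.60 (DESeq2 adjusted p = 0.00146). This call was lost with edgeR, with TMM size factors, with only the groups compared, and without replicate 1 of control DHT or of KO DHT.

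With DHT, 1 of 27 other transporters tested rose and 5 fell in control, beside 6.04% and 5.37% of all genes. With each replicate left out in turn 1 to 3 rose and 4 to 6 fell, and with only the groups compared 2 rose and 3 fell. SLC7A2, which carries arginine and lysine as SLC7A1 does, went from 800.3 and 672.4 in control EtOH to 430.1 and 391.4 in control DHT (log2 -0.84, DESeq2 adjusted p = 1e-07). SLC1A3, a glutamate transporter counted among the 5, had -0.70 (DESeq2 adjusted p = 0.0426), and its call was lost with only the groups compared and in 11 of the 12 fits that left out a replicate. PQLC2, a lysosomal exporter of cationic amino acids, rose by 0.79 in control and 0.63 in KO. Its call was lost in control without replicate 1 of control EtOH, and in KO without replicate 1 or 2 of KO EtOH or replicate 2 of KO DHT.

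Of 13 enzymes of glutamine, glutamate and asparagine metabolism, 3 rose with DHT in control and 2 in KO, beside 6.04% and 4.43% of all genes tested. With each replicate left out in turn the counts were 3 to 5 and 1 to 2. GLUL, glutamine synthetase, had 11540.2 and 9497.5 in control EtOH and 20500.4 and 18765.1 in control DHT, 0.90 on the log2 scale (standard error 0.11, DESeq2 adjusted p = 1.85e-14). GFPT1 (0.72), which uses glutamine to start hexosamine synthesis, and GLUD2 (0.80) also rose in control, and GLUD1 (0.59) and GLUD2 (0.78) in KO. The KO call of GLUD1 was lost with at least 10 counts in every sample, and without replicate 1 of KO EtOH or of KO DHT. GLUD1 and GLUD2 are near-identical glutamate dehydrogenase genes, so their counts are uncertain. In KO against control ASNS fell in EtOH and DHT, as above.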

How the data were processed

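Poly(A) RNA was sequenced from 12 samples, with libraries made by a stranded TruSeq kit. The values are raw read counts per Ensembl gene as deposited by the authors, who processed reads with CASAVA 1.7, mapped them to GRCh37 with TopHat2 2.0.11 and counted them with HTSeq 0.5.3p3, per the labels. The Ensembl release and strand setting are not given in the sources used here. Reads aligned to more than 1 place or shared by genes are not counted by HTSeq. Its 5 tallies, which hold these and other reads given to no gene, were kept out of the totals. Replicates were not pooled.

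Symbols and positions were taken from GENCODE on GRCh37, where 55665 of 63677 identifiers were found. Genes with fewer than 10 counts over all samples were dropped, which kept 26156 and all 10 members. DESeq2 1.42.0 (R 4.3.3) was fitted to all 12 samples with a coefficient per group, Wald tests and unshrunken fold changes, adjusted over all genes by Benjamini-Hochberg. Calls needed an adjusted p of at most 0.05 and a 1.5-fold change. The fit was tested on simulated data. Totals of 20826843 to 30354666 counts make 3 counts, taken as the floor, equal to 0.0988 to 0.144 CPM. Intervals are 95% and cover counting error only where they are so named. Alternatives were edgeR 4.0.16 with TMM, TMM size factors in DESeq2, other filters, fewer groups, a replicate block, no fold minimum and each replicate left out. The p-values rest on an estimate of the spread of each gene between biological duplicates, which all 12 samples share. It does not follow the wider gap between the control EtOH replicates.

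Members and gene lists were chosen with earlier results of these data known. Named genes were the members, called genes of the response, enzyme and neighbour lists, at most 4 of the largest called changes among other transporters at a mean of 100 normalized counts or more, the 5 genes most like SLC38A4 (mean at least 50), and BAG1, FKBP5 and KLK3. SLC38A4-AS1 was named after its values were seen. Some genes this rule covers are not reported here. Promoter windows came from RefSeq on GRCh38.p14, where 9 of 10 members had an entry.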

Additional observations from a re-analysis of the deposited data

Results flagged for a closer look

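The DHT response of SLC16A10, the aromatic amino acid carrier, differed between the lines by 0.73 on the log2 scale (KO minus control), because the fall was -1.05 in control and -0.32 in KO. All 4 DHT samples lay below the EtOH samples of their own line. The test of the difference used DESeq2 (adjusted p = 0.021), and it was not passed with edgeR (adjusted p = 0.139, range 0.00443 to 0.766 over 18 alternatives).

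The FM response also differed between the lines for 2 members, in a comparison added after the data were seen. SLC43A1 differed by 0.78 (DESeq2 adjusted p = 0.000528), with a rise of 1.05 in control and 1.83 in KO. SLC1A5 differed by 0.72 (DESeq2 adjusted p = 0.00313), with 0.35 in control and 1.08 in KO. The SLC1A5 call was lost with edgeR (edgeR adjusted p = 0.0507). As given above, it was also lost in part of the fits that left out a replicate, where the difference lay between 0.58 and 0.85. The SLC43A1 call was kept in these settings. For both genes the KO EtOH samples were the lowest of all groups, at 1139.4 and 1151 for SLC43A1 and at 1866.2 and 1804.1 for SLC1A5.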

How the results depend on the processing

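The numbers of transporters past the threshold under the replicate block were 4 (DHT in control), 3 (DHT in KO), 1 (difference in DHT response), 3, 5 and 1 (KO against control with EtOH, DHT and FM), 4 for FM in control (SLC38A1 added) and in KO, and 2 for the difference in FM response. The correlation of the replicate deviations over 15 pairs of groups averaged 0.033 (range -0.415 to 0.692). It was 0.692 for control EtOH with control DHT and -0.414 for control EtOH with KO EtOH. Whether replicate numbers pair the samples cannot be told from this mean, since positive and negative values offset each other.

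The difference in DHT response counted 0 genes with edgeR and 0 with only the groups compared, and 0 to 1 with a replicate left out (SLC38A2 in place of SLC16A10 without replicate 1 of control EtOH). With no fold minimum, KO against control counted 5 in EtOH and 6 in FM, and FM against EtOH counted 8 in each line. The FM against EtOH counts here include SLC38A4, which the report leaves out, with 3 (control) and 4 (KO) as the main values. KO against control in FM counted 1 to 2 with a replicate left out. The difference in FM response counted 1 with edgeR and 1 to 2 with a replicate left out.

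The reversed values, log2 fold changes near 0 that were never called, came from SLC7A5 (DHT in control, 0.01 with only the groups compared; KO in FM, 0.01 with edgeR, TMM size factors, the stricter filter and only the groups compared) and from leaving out a replicate. With a replicate left out, SLC7A5 lay between -0.17 and 0.15 for DHT in control and between -0.06 and 0.04 for KO in FM. SLC7A1 lay between -0.11 and 0.23 for DHT in control, and for KO between -0.19 and 0.11 in EtOH, -0.03 and 0.31 in DHT, and -0.15 and 0.01 in FM. The difference in DHT response lay between -0.29 and 0.07 for SLC38A1, -0.12 and 0.15 for SLC1A5, and -0.16 and 0.18 for SLC7A11. For KO, SLC38A2 lay between -0.27 and 0.03 in EtOH, and SLC38A4 between -0.05 and 0.42 in DHT and between -0.30 and 0.25 in FM. SLC3A2 lay between -0.25 and 0.08 for FM in control.

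The other 1471 values kept their direction and their side of the threshold. A further 31 were newly called, 19 of them only in the setting with no fold minimum, and 23 fell short. Counts of the response, enzyme and other transporter lists under these fits were added after seeing the data. The filter of 10 counts in every sample leaves SLC38A4 out, so it has no value there. Depth limits the EtOH level of SLC38A4, at 2 to 4 counts a sample.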
